A study of Piriqueta cistoides subsp. caroliniana with 18 samples.

Results

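Leaf transcripts of the well-watered hybrid morphotype were set against those of its parental morphotypes, caroliniana and viridis, and against the mean of both parents, in Piriqueta cistoides subsp. caroliniana, a perennial herb. Of 18 two-colour arrays, 4 put a well-watered hybrid plant directly against a well-watered parent plant, 2 for each parent. They were found by the plant codes in the array titles, which give the morphotype (H, C or V), a plant number and the treatment (W for well-watered, D for drought). The hybrid plants were H1W, H2W and H3W, the caroliniana plants C1W, C2W and C3W, and the viridis plants V1W, V2W and V3W. A further 9 plants, 3 of each morphotype, went through 4 cycles of drought over 36 days, and they entered the fit because the arrays form 1 loop. All plants were greenhouse cuttings grown in sand at 35/27 °C (day/night) with a day length of 12 h. The generation of the hybrid, and whether the 3 plants of a group were cuttings of different individuals, are not given in the sources used here, so p-values measure the spread between these samples.

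A hybrid receives the regulatory and coding sequences of both parents, and each of its transcripts can lie between the parental levels, at the level of 1 parent, or outside both. The mean of the parents, called the mid-parent value, is the level expected if the parental contributions simply add up. A transcript beyond both parents is usually called transgressive, and hybrids between plant populations are a classical material for studying such levels.

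The arrays carried soybean cDNA clones, so Piriqueta RNA was read through soybean probes and genes carry the soybean names of these clones. Every plant was hybridised on 2 arrays, in Cy3 on one and in Cy5 on the other. Of 9600 probes, 8176 had values, and 7880 were tested with all plants, 467 of them with 1 gene symbol (309 genes in all). The deposited values are log ratios, and whether their base is 2 or e is not stated, so differences are given in log-ratio units. Their direction is not settled either: signs follow the reading of Cy5 over Cy3 with the second plant code of a title in Cy5, and the opposite reading would swap higher and lower throughout. A log ratio holds no absolute level, so the leaf markers CAB3 and PSAD could not be used to check the tissue. The number of arrays limits the precision.

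The direct array of plant H2W ran against the other 3. The array of H3W against C3W and the array of H1W against V3W, turned to hybrid minus parent, correlated across 7749 probes with a Pearson r of 0.58, although they share no plant. The array of H2W against V3W correlated with H3W minus C3W at r = -0.70 (7808 probes) and with H1W minus V3W, with which it shares V3W, at r = -0.44 (7860 probes). These are descriptions across probes, which are not independent of each other. The array of H3W against C1W correlated with H3W minus C3W at r = 0.25 (5808 probes), with H2W minus V3W at r = -0.36 (5949 probes) and with H1W minus V3W at r = 0.12 (5875 probes), and it held 5962 values where the other 17 arrays held 7382 to 8134. Dye orientation differs among the direct arrays: the hybrid was in Cy5 against C3W and for H1W against V3W, and in Cy3 against C1W and for H2W against V3W. With each probe's mean over the 18 arrays taken off first, which removes a dye effect shared by all arrays (5371 probes), H2W minus V3W correlated with H3W minus C3W at r = -0.63, with H3W minus C1W at r = -0.57 and with H1W minus V3W at r = -0.24 (Spearman's rho -0.53, -0.57 and -0.08). The other 3 pairs were then all positive, at r = 0.48 for the 2 arrays of H3W, and at r = 0.45 and 0.24 for H1W minus V3W with H3W against C3W and C1W (rho 0.45, 0.28 and 0.08).

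The second array of H2W, against the drought-treated hybrid H1D, did not run against its counterparts in the parents. It correlated at r = 0.64 both with the array of C2W against C1D and with that of V2W against V1D (rho 0.33 and 0.31, 5371 probes), and at r = 0.62 and 0.61 with the probe means taken off (rho 0.27 and 0.24). The parental arrays correlated with each other at r = 0.64 (rho 0.47), and at r = 0.59 (rho 0.32) with the probe means taken off. All 3 of these arrays have the drought-treated plant in Cy3. Whether the plant H2W differs, or the orientation or labelling of its array with V3W, was not tested. Every value of H2W below carries this limit. The levels of single plants carry it too, since they solve the loop of all 18 arrays, both arrays of H2W included. Every comparison is therefore given without H2W and with all plants. Without H2W the hybrid was represented by H1W and H3W, 16 arrays remained, and V3W and H1D kept 1 array each.

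**Figure D1:**
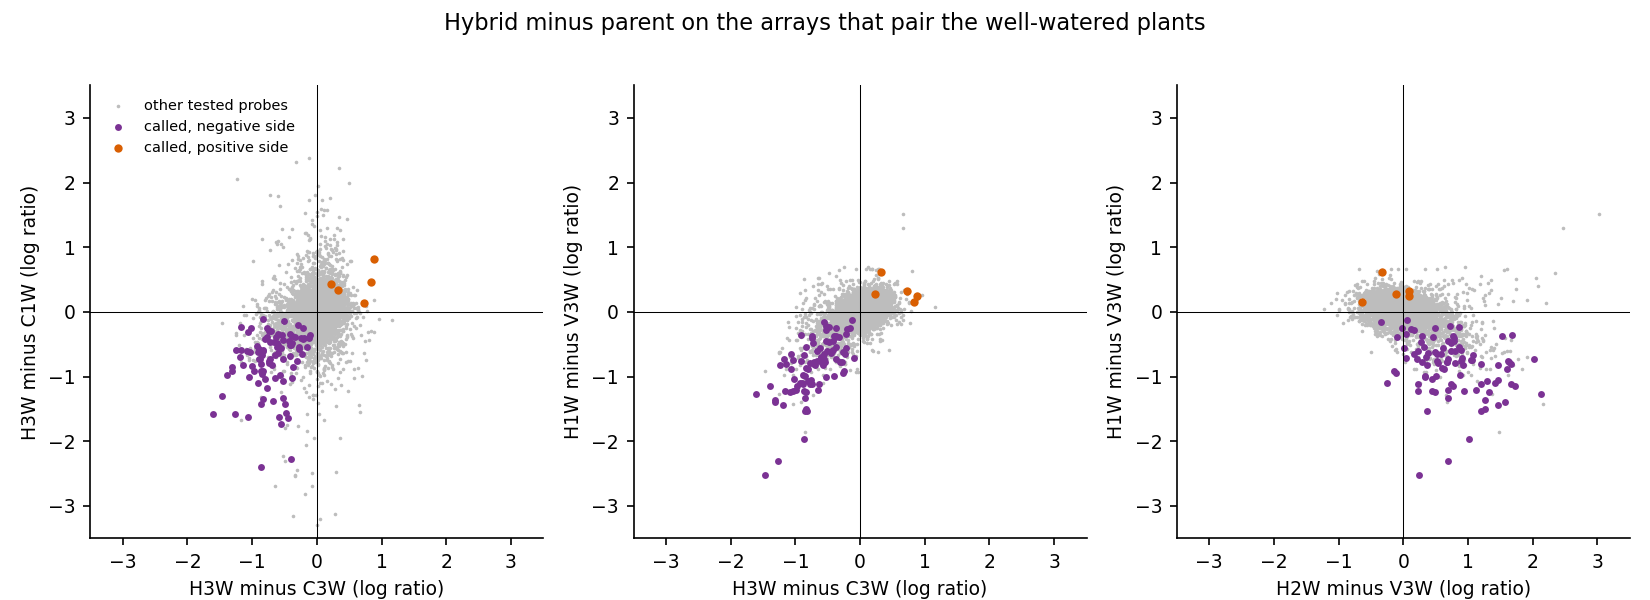
Hybrid minus parent on the direct arrays, in log-ratio units, for the 5775 tested probes with a value on all 4: H3W minus C1W against H3W minus C3W (left), H1W minus V3W against H3W minus C3W (middle) and H1W minus V3W against H2W minus V3W (right). Coloured points are probes called against the mid-parent without H2W, in a fit that used the arrays of H1W and H3W. The 94 negative ones lie below 0 on those arrays, and 88 of them lie above 0 on the array of H2W.

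With all plants, hardly any transcript separated the hybrid from its parents. A probe was called at an adjusted p under 0.05 (limma, Benjamini-Hochberg over all probes tested). Of 7880 probes, 0 (0%) were called against caroliniana, 1 (0.0127%) against viridis and 1 (0.0127%) against the mid-parent, while 237, 259 and 258 had an unadjusted p under 0.05. The parents themselves were not separated either: caroliniana minus viridis gave 0 calls (0%), 186 probes with an unadjusted p under 0.05, and a smallest adjusted p of 0.352.

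The probe called in both comparisons, Gm18130, has no gene name. It read -0.94 for H1W minus V3W, -0.15 for H3W minus C3W and -0.83 for H3W minus C1W, and it had no value on the array of H2W against V3W. It was lower in the hybrid than in viridis by 0.87 ± 0.12 (SE, limma adjusted p = 0.0273) and lower than the mid-parent by 0.70 ± 0.10 (SE, limma adjusted p = 0.0459), and its difference from caroliniana was -0.54 ± 0.11 (SE, limma adjusted p = 1). The call against viridis held without H2W, H3D, V1W or V3D and was lost when any of the other 14 plants was left out.

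Among named genes with all plants, those with the smallest p against viridis included a lipoxygenase, 2 probes of the uncharacterised LOC732582, and MIPS. VLXC encodes a vegetative lipoxygenase, an enzyme that oxygenates unsaturated fatty acids in leaves. On probe Gm10164 the plants H1W, H2W and H3W stood at 0.09, 0.67 and -0.04, the caroliniana plants at 0.27, 0.62 and 0.40, and the viridis plants at -0.15, -0.67 and -0.47, as levels relative to the mean of the 6 parent plants. These levels solve the loop plant by plant, while the group differences weight the arrays by the model, so a mean of levels need not equal a fitted difference. The hybrid and caroliniana overlapped, and every hybrid plant lay above every viridis plant. The difference was -0.25 ± 0.19 from caroliniana and 0.77 ± 0.19 from viridis (SE, limma adjusted p = 1 for both), against 1.02 ± 0.19 between caroliniana and viridis (limma adjusted p = 0.352). Without H2W the corresponding values were -0.39, 0.58 and 0.97, so on this probe the estimated hybrid mean lay between the parents in both fits. The other VLXC probe, Gm07581, read 0.07 against the mid-parent without H2W.

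LOC732582 had 3 probes, each with an estimate farther from viridis than from caroliniana. Probe Gm00334 differed from viridis by 0.61 ± 0.14 and from caroliniana by 0.07 ± 0.14 (SE), probe Gm05697 by 1.03 ± 0.30 and -0.25 ± 0.30, and probe Gm01375 by 0.26 ± 0.23 and -0.03 ± 0.23 (SE). On Gm05697 the hybrid plants lay at 0.31, 1.18 and 0.23, the caroliniana plants at 0.55, 0.57 and 0.47, and the viridis plants at -0.72, -0.57 and -0.30, so that the viridis plants lay apart from all others. The mean of these hybrid levels is slightly above that of caroliniana while the fitted difference is negative, so the side relative to caroliniana is not settled for this probe. No adjusted p for these probes was under 0.05 in either fit. Turning the sign of the H2W and V3W array, tried because that array ran against the other 3, gave Gm00334 a difference from the mid-parent of -0.020, against 0.34 as deposited.

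MIPS, myo-inositol-3-phosphate synthase, makes the precursor of inositol and of the raffinose sugars that many plants accumulate under stress. Its 3 probes lay below 0 on the array of H1W minus V3W, at -1.10 for Gm00068, -0.65 for Gm03671 and -0.35 for Gm05530. With all plants the differences from viridis were -0.49 ± 0.18, -0.33 ± 0.10 and -0.26 ± 0.07 (SE), and without H2W they were -0.68 ± 0.19, -0.45 ± 0.10 and -0.33 ± 0.08 (SE). The limma adjusted p was 1 for all 3 with all plants and 0.176, 0.0627 and 0.0924 without H2W, so none was called. On Gm00068 the plants of a group were spread widely: H1W, H2W and H3W read -0.29, 0.20 and -0.78, C1W, C2W and C3W -0.13, 0.50 and -0.65, and V1W, V2W and V3W 0.51, -0.60 and 0.37.

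Against caroliniana, the named probes with the smallest p with all plants included 2 steps of chlorophyll synthesis. HEMB encodes aminolevulinate dehydratase, an early enzyme of tetrapyrrole synthesis, and its probe Gm17841 differed by -0.38 ± 0.13 (SE). CHLH encodes the large subunit of magnesium chelatase, which puts magnesium into the chlorophyll ring, and probe Gm06047 differed by -0.69 ± 0.25 (SE). The arrays differed widely: that of H3W against C1W read -1.84 and that of H3W against C3W -0.15, and C1W stood at 1.06 where C2W and C3W stood at -0.11 and -0.45. The other CHLH probe, Gm06139, differed by -0.03. SRC1, a cold-regulated gene of soybean, had the same shape, at -2.05 against C1W and -0.17 against C3W, with C1W at 1.18. The limma adjusted p of these probes was 1. GSA1 (Gm17519), another gene of chlorophyll synthesis, differed from caroliniana by 1.008-fold in base 2 with all plants.

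Without H2W, a set of transcripts was lower in the hybrid than in both parents. Of 7921 probes tested, 104 (1.31%) were called against the mid-parent, 99 of them lower (1.25%) and 5 higher (0.0631%). Against caroliniana 68 were called (0.858%), 65 lower (0.821%) and 3 higher (0.0379%), and against viridis 48 (0.606%), all lower. The 37 probes called against both parents, all lower in both, made up 54.4% of the caroliniana calls and 77.1% of the viridis calls; these comparisons share the hybrid plants. The parents again gave 0 calls between each other (0%), with 254 probes at an unadjusted p under 0.05 and a smallest adjusted p of 0.396.

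The calls lay on 1 side while the bulk of probes did not. The median difference over all probes was 0.04 against caroliniana, 0.03 against viridis and 0.03 against the mid-parent, and the median over the calls was -0.76, -0.85 and -0.67. Among probes with an unadjusted p under 0.05 the sides were nearly even, with 539 higher and 543 lower against the mid-parent. All 99 lower and 5 higher mid-parent calls lay outside the range of the parental means. Over all 7921 probes the estimated hybrid mean lay below both parents for 29.2%, between them for 21.5% and above both for 49.3%. With all plants these shares were 28, 37.4 and 34.5% of 7880 probes.

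The calls were then read on each direct array. Of the 99 lower mid-parent calls, 94 had a value on all 4 direct arrays. All 94 lay below 0 on H1W minus V3W (median -0.78, range -2.52 to -0.13), on H3W minus C3W (median -0.70) and on H3W minus C1W (median -0.64). These arrays entered the fit that chose the probes, so the shared sign follows largely from the choice. On the array left out, H2W minus V3W, 88 of the 94 lay above 0 and 6 below, with a median of 0.69. The medians over all 5775 probes were 0.04, 0.07, 0.01 and -0.08 in the same order. For the 83 calls with values on all 18 arrays, H2W lay above the mid-parent estimate by a median of 0.66 when read from its array with V3W and by 0.26 when read from its array with H1D, and 3 and 21 of the 83 were below 0. Over all 5371 probes with such values the medians of H2W were -0.06 and -0.07. On the called probes H1W and H3W were low, which follows largely from the choice. H2W read high by the median on both of its arrays, though less so on the array with H1D. It was left out because its array with V3W ran against the other direct arrays, so the opposite sign there is not independent of that step. Whether the plant or that array differs was not tested.

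**Figure D2:**
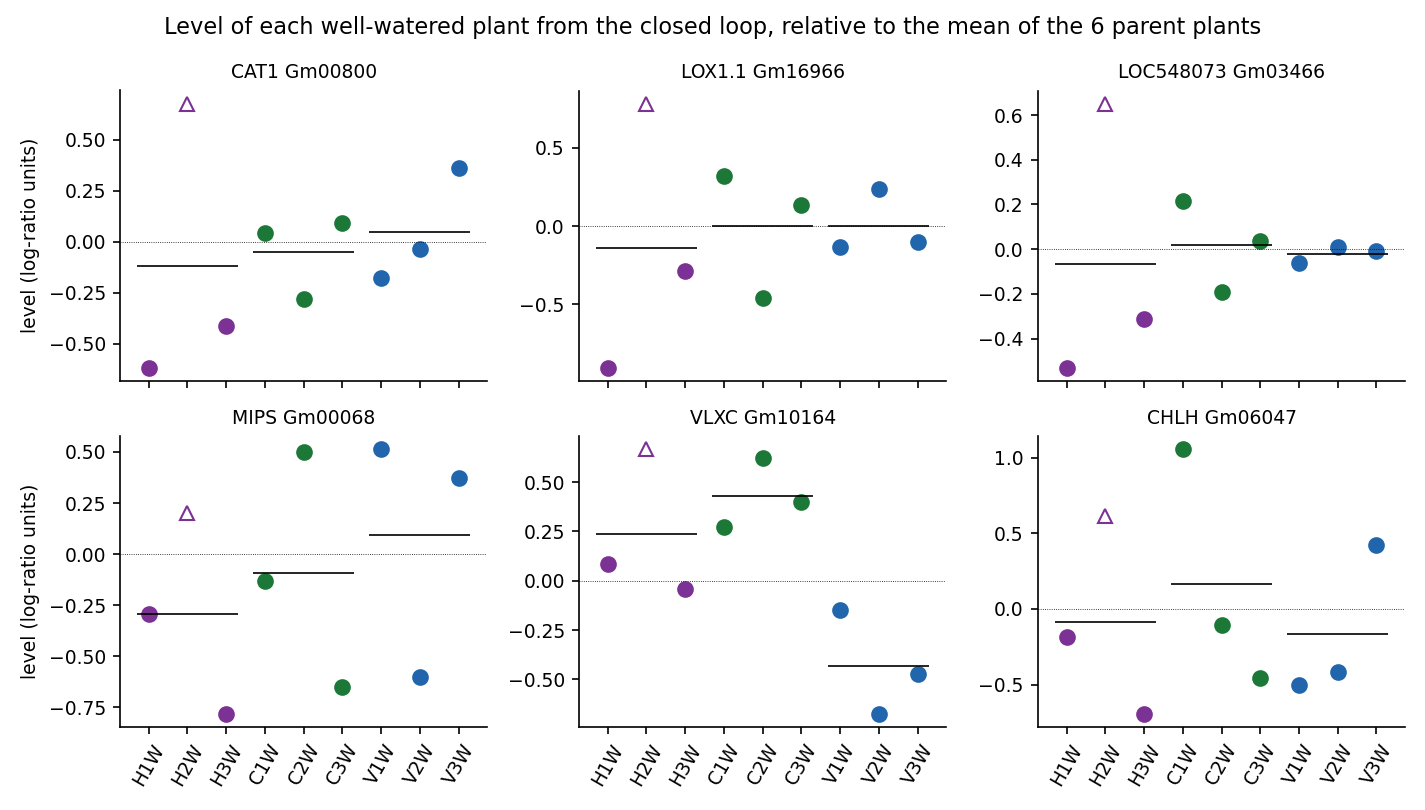
Level of each well-watered plant, in log-ratio units relative to the mean of the 6 parent plants, for 6 probes with values on all 18 arrays (hybrid plants left, caroliniana in the middle, viridis right). Both arrays of H2W enter the level of every plant. Horizontal lines are the means of 3 plants and the open triangle is H2W; for CAT1 and LOC548073, H1W and H3W lie below and H2W above all 6 parent plants, and for LOX1.1 the same holds except that H3W lies above C2W.

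Of 471 named probes tested without H2W, 8 were called against the mid-parent (1.7% of the named probes, against 1.31% of all probes), all lower. Those with a known role were a catalase and a lipoxygenase. CAT1 encodes catalase, which breaks down hydrogen peroxide, much of it formed in leaf peroxisomes during photorespiration. Probe Gm00800 read -1.0 for H1W minus V3W, -0.53 for H3W minus C3W and -0.43 for H3W minus C1W, but 0.34 for H2W minus V3W. In levels, H1W, H2W and H3W stood at -0.62, 0.68 and -0.41, the caroliniana plants at 0.04, -0.28 and 0.09, and the viridis plants at -0.18, -0.04 and 0.36. H1W and H3W lay below all 6 parent plants and H2W above all of them. Relative to the mid-parent fitted without it, H2W read 0.44 from its array with V3W and 0.41 from that with H1D.

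Without H2W, CAT1 was lower than the mid-parent by 0.64 ± 0.14 (SE, limma adjusted p = 0.0396), which is 1.56-fold in base 2 and 1.9-fold in base e. Its differences from caroliniana, -0.56 ± 0.15, and from viridis, -0.73 ± 0.17 (SE), did not pass (limma adjusted p = 0.118 and 0.0696). With all plants the mid-parent difference was -0.32 ± 0.18 (SE, limma adjusted p = 1). The call held in 5 of the 17 fits that left out a further plant. A related catalase, CAT5 (Gm03477), read -1.40 for H1W minus V3W, -0.91 and -0.49 for H3W against C3W and C1W, and 0.67 for H2W minus V3W; its mid-parent difference without H2W, -0.88 ± 0.23 (SE, limma adjusted p = 0.0841), was not called.

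LOX1.1 is a lipoxygenase first known from soybean seed. Probe Gm16966 read -1.12 for H1W minus V3W, -0.74 for H3W minus C3W and -0.29 for H3W minus C1W, against 1.20 for H2W minus V3W. H1W, H2W and H3W stood at -0.91, 0.78 and -0.29, the caroliniana plants at 0.32, -0.46 and 0.14, and the viridis plants at -0.13, 0.24 and -0.10. In these levels, which use both arrays of H2W, H3W lay above C2W and below the other 5 parent plants. They do not show whether the groups overlap without H2W. H2W itself was read differently by its arrays, at 1.08 relative to the mid-parent from that with V3W and at -0.07 from that with H1D. LOX1.1 was lower than viridis by 0.69 ± 0.13 (SE, limma adjusted p = 0.0257) and than the mid-parent by 0.59 ± 0.11 (SE, limma adjusted p = 0.0146), and its difference from caroliniana was -0.49 ± 0.12 (SE, limma adjusted p = 0.074). The mid-parent call held in 12 of 17 fits and was lost without C1W, C3W, H1W, H3W or V3W. With all plants the mid-parent difference was -0.22 ± 0.20 (SE, limma adjusted p = 1).

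The other 6 named calls carry soybean identifiers for which no role is stated here. LOC548073 (Gm03466) was called in all 3 comparisons. It read -0.60 for H1W minus V3W, -0.43 for H3W minus C3W and -0.45 for H3W minus C1W, against 0.74 for H2W minus V3W. H1W and H3W stood at -0.53 and -0.31 and H2W at 0.65, the caroliniana plants at 0.21, -0.19 and 0.04, and the viridis plants at -0.06, 0.01 and -0.01. The 6 parents thus spanned -0.19 to 0.21, with H1W and H3W below and H2W above that span. H2W read 0.72 above the mid-parent from its array with V3W and 0.34 from that with H1D. Without H2W the differences were -0.45 ± 0.08 from caroliniana, -0.53 ± 0.08 from viridis and -0.49 ± 0.07 from the mid-parent (SE, limma adjusted p = 0.012, 0.00628 and 0.00345). The mid-parent call held in 15 of 17 fits and was lost without H1W or H3W. With all plants that difference was -0.17 ± 0.15 (SE, limma adjusted p = 1). Its second probe, Gm05304, was not called.

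LOC547737 (Gm00165) was also called in all 3, with -0.38 from caroliniana, -0.35 from viridis and -0.37 from the mid-parent (limma adjusted p = 0.0211, 0.0485 and 0.0113). LOC547652 (Gm05949) was called against caroliniana (-0.72, limma adjusted p = 0.0302) and the mid-parent (-0.71, limma adjusted p = 0.0145). On LOC547652 the 4 direct arrays gave the widest gap between hybrid plants among the named calls: -0.77 for H1W minus V3W, -0.91 and -0.62 for H3W against C3W and C1W, and 1.61 for H2W minus V3W. A second probe of the same gene, Gm05937, read -0.73, -1.05 and -0.71 on those arrays of H1W and H3W and 1.78 on that of H2W, and missed the threshold (-0.79, limma adjusted p = 0.0515). The mid-parent calls of LOC547737 and LOC547652 held in 12 and 11 of 17 fits.

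LOC778110 (Gm07908), LOC732565 (Gm05804) and CEL12 (Gm04907) were called against viridis and against the mid-parent. LOC778110 differed from viridis by -0.68 and from the mid-parent by -0.55 (limma adjusted p = 0.00651 and 0.00799). There H2W read 0.39 relative to the mid-parent from its array with V3W and -0.40 from that with H1D, so its arrays gave opposite signs. LOC732565 differed by -0.61 and -0.51 (limma adjusted p = 0.0442 and 0.0295), but its second probe, Gm05782, differed by 0.24 from viridis and 0.26 from the mid-parent without a call, so the probes of this gene disagree. CEL12 differed by -0.53 and -0.48 (limma adjusted p = 0.0442 and 0.0295), while its second probe, Gm00129, differed by -0.01 from viridis and -0.06 from the mid-parent. The mid-parent calls of these 3 held in 13, 8 and 5 of 17 fits.

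**Figure D3:**
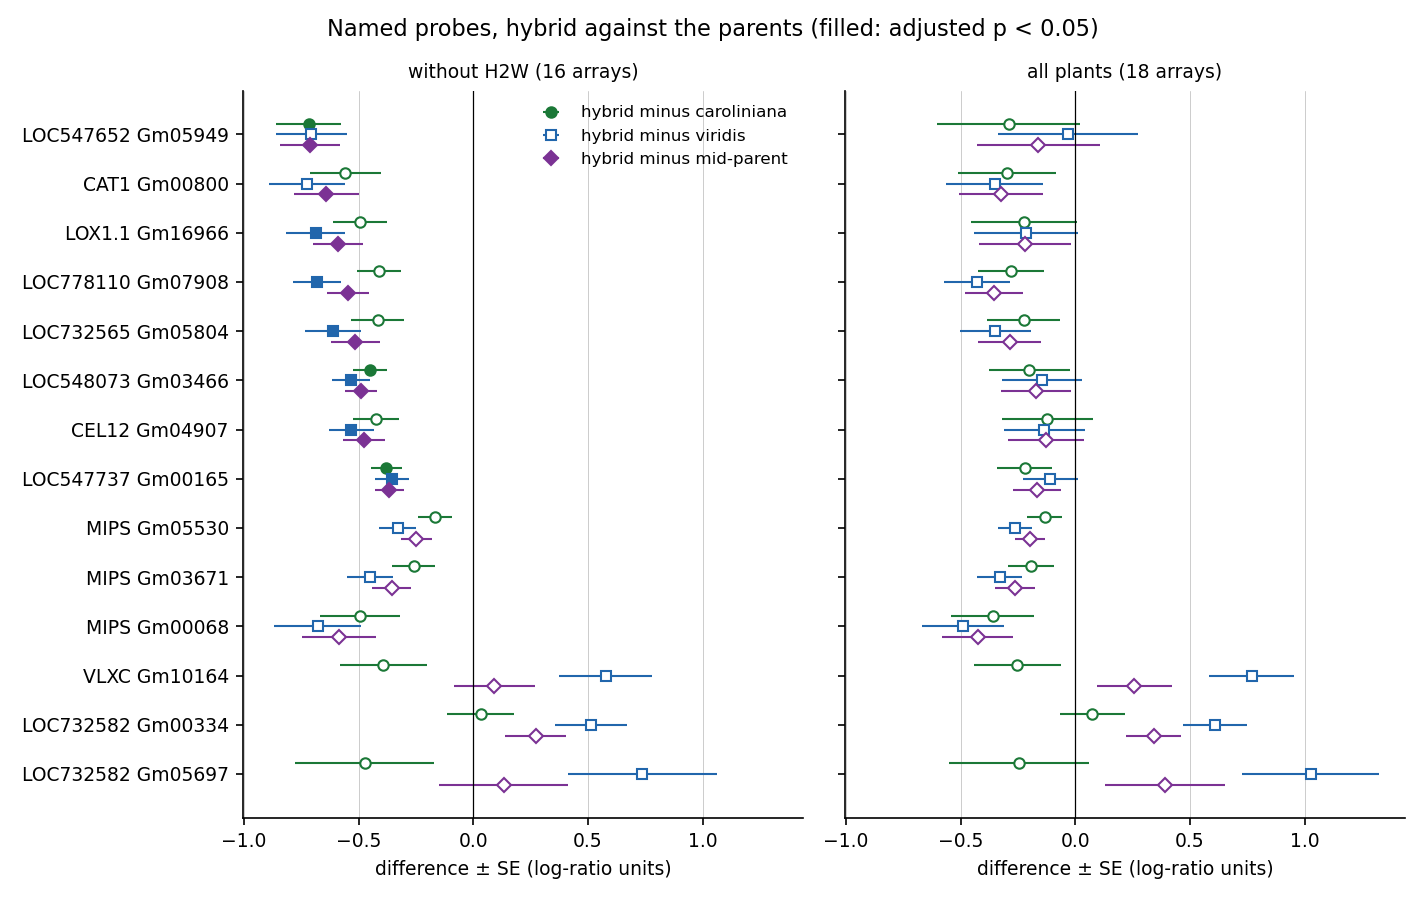
Difference of the hybrid from caroliniana, viridis and the mid-parent in log-ratio units, with standard error bars, for the 8 named probes called against the mid-parent and 6 probes of MIPS, VLXC and LOC732582; filled symbols have an adjusted p under 0.05. Without H2W (left) 8 mid-parent differences are called, from -0.71 for LOC547652 to -0.37 for LOC547737; with all plants (right) no symbol is filled.

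The calls with the largest differences had no gene name. Gm18070 was lower than caroliniana by 1.62, than viridis by 1.97 and than the mid-parent by 1.80 (limma adjusted p = 0.00432, 0.0016 and 0.000614), the last being 3.48-fold in base 2 and 6.04-fold in base e. H1W, H2W and H3W stood at -2.24, 0.42 and -1.05 on it, the caroliniana plants at 0.30, -0.75 and 0.37, and the viridis plants at -0.49, 0.34 and 0.23. H1W was the lowest plant in these levels, which use both arrays of H2W. The mid-parent call held in 16 of 17 fits. Without H1W, which left 1 hybrid plant, the difference was -1.48. Gm06120 differed from the mid-parent by -1.74 and Gm15635 by -1.49, and each call was lost without 1 plant, H1W for Gm06120 and H3W for Gm15635.

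Gm05625 had the smallest adjusted p, 6.87e-05 against viridis at -1.36 ± 0.11 (SE, limma), and that call held in all 17 fits. It read -1.50 for H1W minus V3W, -0.84 for H3W minus C3W, -0.91 for H3W minus C1W and 1.26 for H2W minus V3W. Gm06107 read -1.27 for H1W minus V3W and -1.61 and -1.58 for H3W against C3W and C1W, against 2.13 for H2W minus V3W; its difference from caroliniana was -1.49 (limma adjusted p = 0.00092). The higher calls were smaller. Gm09970 was higher than the mid-parent by 0.51, Gm13811 by 0.40, Gm11769 by 0.36 and Gm18346 by 0.36 (limma adjusted p = 0.0468, 0.0286, 0.0295 and 0.0219). H3W alone was high on Gm09970, at 0.94 against -0.10 for H1W and -0.12 for H2W, and the mid-parent difference was 0.16 without H3W. That of Gm13811 was 0.17 without H3W, and the 4 calls held in 4, 7, 6 and 10 of 17 fits.

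How many probes were called without H2W depended on which further plant was left out. Leaving out H1W reduced the calls against caroliniana, viridis and the mid-parent to 7, 2 and 9, and leaving out H3W to 0, 13 and 8; the hybrid was then 1 plant, whose spread is taken from the other groups. Without V3W the counts were 39, 7 and 22, without C1W 17, 29 and 48, without C3W 22, 42 and 52, without V1W 15, 13 and 59, without V2D 25, 28 and 64, and without C3D 29, 33 and 68. Leaving out C1D raised them to 203, 119 and 213 and H3D to 196, 95 and 199. Without C2W, V2W or V3D the mid-parent count stayed within 1.5 times of 104, but C2W lowered the others to 42 and 26, V2W to 44 and 28, and V3D lowered the viridis count to 26. No called probe changed sign in any of these fits. With all plants in the fit, leaving out any plant other than H2W left at most 1 call in each of these comparisons.

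**Figure D4:**
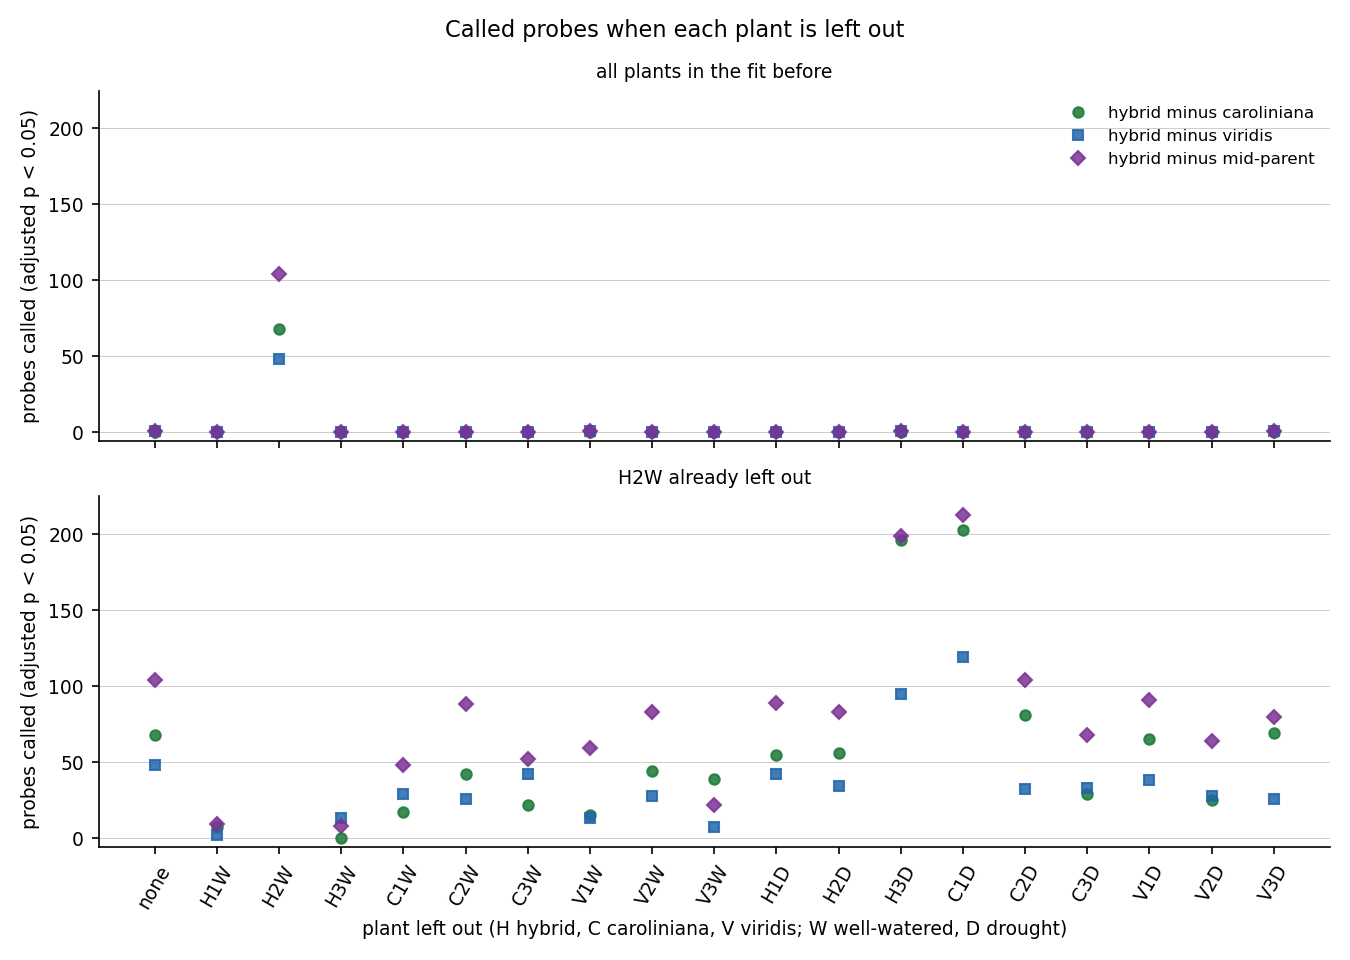
Number of probes called against caroliniana, viridis and the mid-parent when each plant is left out, starting from all plants (top) and from the fit that already lacks H2W (bottom). In the top panel the counts exceed 1 at H2W only; in the bottom panel the mid-parent count runs from 8 without H3W to 213 without C1D.

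Groups of related genes were described by their counts and medians, beside the median of 0.03 over all probes without H2W and 0.01 with all plants. For photosystem and chlorophyll genes, 0 of 10 probes were called in either fit, and the median mid-parent difference was -0.11 without H2W and -0.04 with all plants. PSAD, a subunit of photosystem I, had 2 probes that disagreed: Gm06019 at -0.33 ± 0.08 (SE, limma adjusted p = 0.0661) and Gm10356 at 0.09 ± 0.07 (SE). The 4 probes of CAB3, which binds chlorophyll in the antenna that harvests light, lay between -0.23 and 0.23, with standard errors up to 0.52.

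Of 8 probes for enzymes that remove peroxide and superoxide, 1 was called without H2W, CAT1, where 1.31% of all probes were, and 0 with all plants, where 0.0127% were, and the medians were -0.13 and -0.02. APX1, ascorbate peroxidase, had 3 probes at 0.14, -0.12 and -0.25 without H2W, none called. SODB, a superoxide dismutase, read 0.01. Glutathione transferases, which join glutathione to reactive compounds, gave 0 calls in 7 probes, with medians of -0.06 and -0.01, and GSTU9 was their highest at 0.24 ± 0.12 (SE) without H2W.

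Among 13 lipoxygenase probes, LOX1.1 was called without H2W, where 1.31% of all probes were; of the other 12, none called, 11 lay above 0 and the highest was LOXB1 (Gm01460) at 0.19. The list medians were 0.05 without H2W and 0.03 with all plants. The inositol and polyamine list held 3 MIPS and 4 SAMDC probes, the latter for S-adenosylmethionine decarboxylase of polyamine synthesis, and had medians of -0.25 without H2W and -0.18 with all plants, with 0 calls. SAMDC probes disagreed, from -0.37 (Gm01668) to 0.14 (Gm05287).

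Phenylpropanoid, flavonoid and isoflavonoid genes showed no call in 32 probes without H2W (31 with all plants), with medians of 0.02 and -0.01. The lowest was CYP98A2 (Gm08062), a cytochrome P450 of the phenylpropanoid pathway, at -0.47 ± 0.16 (SE, limma adjusted p = 0.203), whose other 2 probes read -0.08 and 0.03. The highest was F3H (Gm18512), flavanone 3-hydroxylase, at 0.20 ± 0.07 (SE, limma adjusted p = 0.2). Chalcone synthase CHS1 lay between -0.28 and 0.05 on 3 probes, and isoflavone synthase IFS2 between 0.03 and 0.19 on 4.

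Transcription factors had 0 calls in 31 probes and medians of 0.06 without H2W and 0.03 with all plants, with 22 and 23 probes above 0. The range without H2W ran from -0.34 for BZIP112, a bZIP factor, to 0.26 for BZIP55. PIP2-6, a plasma membrane aquaporin, read -0.31 ± 0.09 (SE, limma adjusted p = 0.148) without H2W and -0.10 with all plants. CWINV, a cell-wall invertase that splits sucrose, read 0.16 ± 0.05 without H2W and 0.13 ± 0.05 with all plants (SE), and was not called (limma adjusted p = 0.199 and 1).

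Seed, ribosomal and nodule genes, which are not leaf markers, gave 0 calls. Seed proteins had medians of 0.04 without H2W and -0.0039 with all plants over 22 probes, and ribosomal proteins 0.04 and 0.01 over 6. The 14-3-3 protein SGF14M read 0.03 and -0.06, and the nodule gene NOD33 read -0.01 and 0.09 on its 2 probes without H2W. The 3 probes of commonly used reference genes had the lowest list median without H2W, -0.44, and one of -0.13 with all plants, with no call. They disagreed, since GAPC1 (glyceraldehyde-3-phosphate dehydrogenase) read -0.44 on Gm01799 and 0.02 on Gm03248, and TUBB3 (beta-tubulin) read -0.47. On Gm01799 the arrays gave -0.53 for H1W minus V3W and -0.80 for H3W minus C3W, against 0.95 for H2W minus V3W.

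The hybrid's distance from the mid-parent was then compared between well-watered and drought-treated plants, as well-watered minus drought. Among the 4 arrays that pair a drought-treated hybrid with a drought-treated parent, that of H2D against V3D is marked bad in its title. It was kept in these fits. With all plants 0 probes were called (0%), with 431 at an unadjusted p under 0.05 and a smallest limma adjusted p of 0.273. Without H2W 462 of 7921 were called (5.83%), 303 negative (3.83%) and 159 positive (2.01%). The hybrid distance under drought itself gave 14 calls (0.177%), all positive, without H2W and 0 with all plants (0%; 777 at an unadjusted p under 0.05). The 3 comparisons share plants, and their values are set side by side only.

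Of the 303 negative calls, 284 had a well-watered distance below 0 and a drought distance above 0, 17 had both below 0 and 2 both above. Their medians were -0.42 in well-watered plants and 0.28 under drought. All 159 positive calls had the opposite arrangement, with medians of 0.19 and -0.19. Choosing probes by a large difference favours opposite signs of its terms, and the share over all probes is not given here. Of the 462, 96 were also called for the well-watered distance and 14 for the drought distance. Both distances were called for 5 probes, so a change of sign could be shown for at most 5. For the 99 probes called lower than the mid-parent in well-watered plants, the median drought distance was 0.21, 75 of them lay above 0 under drought, where 44.2% of all probes did, and 92 were among the 462. The choice of the 99 by their well-watered distance, which is a term of the difference, sets much of the last count, and nothing is read from it. The drought distances come from the same fit and share arrays with the well-watered ones, such as that of H1W and H2D. The median of 0.21 and the 75 are thus not independent of the choice and are given as values only. The split between signs depends on scaling: 53 of 235 calls were positive with arrays scaled to 1 spread and 79 of 467 with arrays centred on the median, against 159 of 462.

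CAT5 had the widest gap among the named probes called for this difference, at -0.88 in well-watered and 0.32 in drought-treated plants, a difference of -1.20 ± 0.29 (SE, limma adjusted p = 0.0267). LOX1.1 stood at -0.59 and 0.33 (difference -0.92, limma adjusted p = 0.00226), CAT1 at -0.64 and 0.16 (difference -0.80, limma adjusted p = 0.0204), and LOC548073 at -0.49 and 0.34 (difference -0.83, limma adjusted p = 0.000218). CAB3 (Gm05985) reached its difference of -1.07 (limma adjusted p = 0.0249) from the drought side, with -0.06 in well-watered and 1.01 in drought-treated plants. PIP2-6 stood at -0.31 and 0.21 (difference -0.52, limma adjusted p = 0.0207) and PSAD (Gm06019) at -0.33 and 0.10 (difference -0.43, limma adjusted p = 0.0261). On the positive side, F3H (Gm18512) stood at 0.20 and -0.10 (difference 0.30, limma adjusted p = 0.0475) and GAI1 (Gm04114) at 0.34 and -0.20 (difference 0.54, limma adjusted p = 0.0211), while the other GAI1 probe, Gm04090, stood at 0.06 in well-watered plants. LOC548073 and CAB3 (Gm05985) were also called for the drought distance itself (limma adjusted p = 0.0489 and 0.0477). So was APX1 (Gm05083), at -0.12 in well-watered and 0.40 in drought-treated plants (limma adjusted p = 0.033 for the drought distance). Its difference was -0.53 (limma adjusted p = 0.00518). With all plants the limma adjusted p of all 39 named probes among the calls for the treatment difference was 0.772. Leaving out H3W as well reduced the 462 calls to 55.

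**Figure D5:**
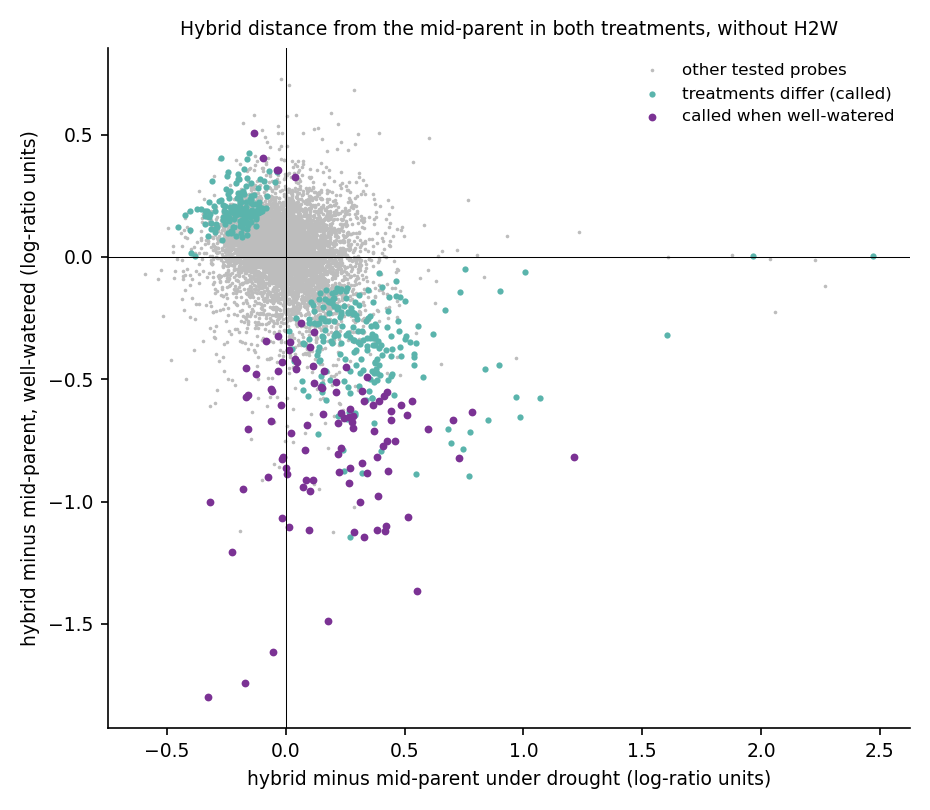
Hybrid minus mid-parent in well-watered plants (vertical axis) against the same distance under drought (horizontal axis), in log-ratio units, from the fit without H2W for 7921 probes. Probes called against the mid-parent in well-watered plants lie mostly in the lower right, where the well-watered distance is below 0 and the drought distance above 0. These probes were chosen by the vertical distance, and both distances come from the same fit.

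The lower calls were also counted along the clone numbers. In 1 stretch of consecutive numbers, which was chosen from earlier results of the drought comparison in these data, 22 of 251 tested probes (8.76%) were called lower than the mid-parent, against 77 of 7670 (1.0%) elsewhere. The median mid-parent difference was -0.12 in the stretch and 0.04 outside it. The drought comparison uses the same well-watered plants, so these values are not independent of the choice of the stretch. Among others, CAB3, CHLH (Gm06047), PSAD (Gm06019), LOC547652 and LOC732565 have probes in it. The unnamed Gm05625, Gm06107 and Gm06120 lie in it as well. Of these genes, LOC547652 (Gm05949) and LOC732565 (Gm05804) had a probe called lower than the mid-parent.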

How the data were processed

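The deposited values are log ratios per probe and array, recorded as log2 although no source used here states the base; the authors' normalisation and the direction of the ratio are not given in the sources used here. Per the labels' protocols, the authors started from 4 µg of total RNA, and 3.5 µg of the amplified product went into each Cy3 or Cy5 labelling. Values were neither centred nor scaled again. Each probe with values on at least 14 of 18 arrays (12 of 16 without H2W) entered a generalised least squares model that held the 6 group means, an intercept for the dye and a random effect of plant, with 1 variance ratio over all probes (0.251, and 0.187 without H2W). Tests were two-sided with limma 3.58.1 in R 4.3.3 (empirical Bayes, Benjamini-Hochberg per comparison, threshold 0.05), and the script was tested on simulated data. Figures used matplotlib 3.10.9. Gene symbols came from the table supplied for the probes: 546 probes had 1 symbol, 6 several and 9048 none. Named were called probes with 1 symbol (up to 12 per direction and comparison), filled up by the smallest p to 10, up to 6 members per gene list, and up to 4 unnamed probes per direction. Members, lists and the leaving out of H2W were chosen with earlier results of these data known. Levels of plants come from the closed loop, for probes with values on all arrays, so both arrays of H2W enter the level of every plant. Channel intensities were not analysed here. Alternatives are in the closing section.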

Additional observations from a re-analysis of the deposited data

Results flagged for a closer look

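The hybrid's distance from the mid-parent differed between well-watered and drought-treated plants, by a test of the difference itself, for 462 probes (5.83%) without H2W and for 0 with all plants. Of the 10 named probes taken from the mid-parent comparison this held for 9, CEL12 being the exception, all with the well-watered distance below the drought distance. These probes were chosen by their low well-watered distance, a term of the difference, so the count and the shared sign follow largely from the choice. Without H2W the differences, well-watered minus drought, were -1.08 for LOC547652 on Gm05949 and -1.03 on Gm05937, -0.92 for LOX1.1, -0.83 for LOC548073, -0.81 for PRO2 (a profilin), -0.80 for CAT1, -0.63 for LOC732565, -0.49 for LOC778110 and -0.47 for LOC547737. With all plants they were -0.52, -0.48, -0.59, -0.50, -0.41, -0.44, -0.36, -0.34 and -0.26 in the same order, none of them called by limma. No test for a single outlying plant was run on groups of 3 plants; H2W was left out because its array with V3W ran against the other direct arrays.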

How the results depend on the processing

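With all plants (0, 1 and 1 calls against caroliniana, viridis and the mid-parent), leaving out the array of H2W and V3W gave 1, 6 and 13, turning its sign, because it ran against the other direct arrays, gave 14 against viridis and 45 against the mid-parent, array weights gave 1, 9 and 31, and leaving out both H2W and V3D gave 69, 26 and 80. The viridis and mid-parent calls, both of Gm18130, went to 0 without the array marked bad (H2D against V3D), with scaled arrays and with no dye intercept. The mid-parent call also went to 0 with centred arrays. Well-watered arrays alone and complete probes gave 0 as well. Gm18130 lacks a value on the array of H2W and V3W and was not tested there, so these settings say nothing about its call. The treatment difference (0) gave 28, 141, 364 and 378 in the order used for the first 4, and caroliniana minus viridis (0) gave 2 on well-watered arrays and 4 with weights. Leaving out each plant gave 0 to 68, 0 to 48 and 0 to 104 calls, 0 to 5 between the parents and 0 to 462 for the treatment difference, the highest values being those without H2W, and without C2D between the parents. Turning the array's sign reversed LOC732582 (Gm00334) against the mid-parent, which was then -0.020.

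Without H2W (68, 48 and 104 calls), array weights gave 367 (104 higher), 113 and 240 (45 higher). Against caroliniana, well-watered arrays alone gave 140, independent arrays 140 and scaled arrays 26. The treatment difference (462) gave 1283 with weights (701 positive), 857 with independent arrays (409 positive) and 235 with scaled arrays, and caroliniana minus viridis (0) gave 8 and 2 on well-watered arrays and with weights. Leaving out a further plant, an alternative chosen after seeing the data, as were the turned sign and the medians of lists, gave 0 to 203, 2 to 119 and 8 to 213 calls, 0 to 6 between the parents and 55 to 578 for the treatment difference. Well-watered arrays alone give no treatment difference. Causes of these changes were not tested.

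Plant numbers gave no sign of pairing in the plant levels. Same-numbered plants deviated together with r from -0.70 to 0.62, and 13 of 45 pairs were over 0.1. For other pairs r ran from -0.69 to 0.78, and 38 of 90 were over 0.1. Plants on the same array share its error, and deviations within a group sum to 0, so these values cannot settle the question. The replicate block gave 119 and 84 calls against caroliniana and viridis without H2W, and 0 against viridis and the mid-parent with all plants.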
